A study of Mus musculus with 9 samples.

Results

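Immunoglobulin heavy variable (Ighv) segments were measured in colon RNA of 9 mice, 3 each of the Control, IgG and anti-A9 groups. Of 115 gene symbols that start with Ighv, 12 were at 0 in every mouse, and the 103 segments with a value above 0 in at least 1 mouse were taken, among 21498 symbols in all. All mice were male ICR, an outbred stock, 5 weeks old at the start and killed at the end of week 18. Control mice received neither azoxymethane (AOM, a carcinogen) and dextran sulfate sodium (DSS, which injures the colon lining) nor antibody, and their tissue is labelled normal colorectal mucosa. The IgG and anti-A9 mice both received 10 mg/kg AOM on day 1 and, from 1 week later, 3 cycles of DSS in the water (2% for 7 days, then 1.5% for 5 days, and 1.5% for 5 days again). During these cycles 1.5 mg/kg of antibody was given into a vein every 2 days, a negative control IgG in the IgG group and an antibody to S100A9 in the anti-A9 group, and the tissue of both is labelled colorectal adenocarcinoma.

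An antibody heavy chain gene is made in a B cell by joining 1 Ighv segment to a D and an Ighj segment, and the joined exon is then transcribed with a constant gene such as Igha (IgA), Ighm (IgM) or an Ighg gene (IgG). A B cell and its daughters therefore use the same Ighv segment, and plasma cells, which secrete antibody, hold far more of this RNA than other B cells. The colon lamina propria is rich in plasma cells that secrete IgA. The share of a segment in the summed Ighv level is thus a coarse reading of segment use. It does not resolve clones, since many clones can use the same segment, and in bulk RNA fewer cells of a type and less RNA per cell cannot be told apart.

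All 103 segments are annotated as V genes on the minus strand of chromosome 12, between 113578504 and 116000461 (GRCm38), and fall into 15 families. The 7 segments that ranked first in at least 1 mouse are shown, because the differences in dominance between mice turn on them. Each line gives the last 300 bases of the V exon (GENCODE M21), which encodes framework and complementarity-determining regions, with capitals from the codon of the conserved cysteine, after which the third complementarity-determining region begins, to the end of the segment.

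Ighv2-6 (chr12:113716670-113716969, minus strand): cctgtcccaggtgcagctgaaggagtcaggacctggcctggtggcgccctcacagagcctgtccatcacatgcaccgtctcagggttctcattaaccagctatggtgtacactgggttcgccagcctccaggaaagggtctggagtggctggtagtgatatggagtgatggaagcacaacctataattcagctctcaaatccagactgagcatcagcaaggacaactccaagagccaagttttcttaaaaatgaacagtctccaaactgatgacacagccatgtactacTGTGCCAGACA
Ighv2-6-8 (chr12:113796138-113796437, minus strand): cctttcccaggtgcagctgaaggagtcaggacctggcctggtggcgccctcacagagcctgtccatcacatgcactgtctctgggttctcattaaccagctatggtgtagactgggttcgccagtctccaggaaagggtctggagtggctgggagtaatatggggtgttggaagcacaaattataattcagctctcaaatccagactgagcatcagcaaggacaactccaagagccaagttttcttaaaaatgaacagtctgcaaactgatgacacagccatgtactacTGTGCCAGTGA
Ighv2-9 (chr12:113879096-113879395, minus strand): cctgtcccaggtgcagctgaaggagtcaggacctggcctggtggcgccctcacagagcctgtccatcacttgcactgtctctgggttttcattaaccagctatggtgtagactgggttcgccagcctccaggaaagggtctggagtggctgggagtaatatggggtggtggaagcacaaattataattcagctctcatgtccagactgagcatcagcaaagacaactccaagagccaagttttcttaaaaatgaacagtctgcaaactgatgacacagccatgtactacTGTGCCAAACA
Ighv3-6 (chr12:114288152-114288451, minus strand): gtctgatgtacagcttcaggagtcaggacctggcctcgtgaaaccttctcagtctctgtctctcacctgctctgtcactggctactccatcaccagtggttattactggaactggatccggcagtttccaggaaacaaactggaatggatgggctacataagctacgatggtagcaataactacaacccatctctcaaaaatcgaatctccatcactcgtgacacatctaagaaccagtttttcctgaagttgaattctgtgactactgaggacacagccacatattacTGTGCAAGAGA
Ighv6-6 (chr12:114434788-114435087, minus strand): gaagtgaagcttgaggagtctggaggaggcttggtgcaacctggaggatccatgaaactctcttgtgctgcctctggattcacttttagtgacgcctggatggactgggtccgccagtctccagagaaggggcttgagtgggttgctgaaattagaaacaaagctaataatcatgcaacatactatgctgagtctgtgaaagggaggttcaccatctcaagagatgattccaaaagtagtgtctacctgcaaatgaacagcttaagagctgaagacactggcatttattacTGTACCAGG
Ighv1-12 (chr12:114615850-114616149, minus strand): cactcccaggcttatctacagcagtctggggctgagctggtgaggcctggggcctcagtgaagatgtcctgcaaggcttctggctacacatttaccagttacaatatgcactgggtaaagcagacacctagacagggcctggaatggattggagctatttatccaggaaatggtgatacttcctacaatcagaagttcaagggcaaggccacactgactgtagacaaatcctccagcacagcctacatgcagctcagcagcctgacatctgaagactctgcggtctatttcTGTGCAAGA
Ighv1-26 (chr12:114788372-114788671, minus strand): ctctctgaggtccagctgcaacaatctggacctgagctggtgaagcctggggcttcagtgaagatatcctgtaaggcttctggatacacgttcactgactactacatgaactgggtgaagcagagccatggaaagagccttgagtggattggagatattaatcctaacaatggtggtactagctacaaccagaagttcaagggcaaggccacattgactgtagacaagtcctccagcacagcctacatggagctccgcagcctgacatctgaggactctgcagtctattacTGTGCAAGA

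Ighv2-6, Ighv2-6-8 and Ighv2-9 differ from each other by 12 to 16 positions over the V exon (94.7% to 96.1% identity), whereas Ighv1-12 and Ighv1-26, both of family 1, share 83.0%. Over all 103 segments the median identity to the nearest other segment is 95.1%, and 12 segments have a neighbor of at least 98%, so reads may have been split between near copies and single levels are uncertain for those. Somatic hypermutation, which changes the V exon in activated B cells, adds to this uncertainty.

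The summed Ighv level varied as widely within each group as between groups. It was 12099, 2902 and 3574 FPKM in Control mice 1, 2 and 3. The values were 1288, 4492 and 874 FPKM in IgG mice, and 2278, 13408 and 3437 FPKM in anti-A9 mice. Control 1 and anti-A9 2 were the highest by far, IgG 3 and IgG 1 the lowest, and the groups overlapped. These sums made up 0.238% to 3.77% of a mouse's total FPKM. On the log2 scale the IgG group was 1.54 below Control (means 10.7 ± 1.23 against 12.3 ± 1.11, SD, n = 3 each; two-sided exact permutation p = 0.3, Benjamini-Hochberg adjusted p = 0.75 over 6 comparisons). The anti-A9 group was 1.46 above IgG (mean 12.2 ± 1.34, SD, n = 3; exact permutation p = 0.3, adjusted p = 0.75). Between anti-A9 and Control the log2 difference was -0.086 (exact permutation p = 0.9, adjusted p = 0.9). With 3 mice against 3 no such test can give a p below 0.1. The anti-A9 and Control difference turned to 0.55 without Control 1, to 0.44 without anti-A9 1 and to 0.14 without anti-A9 3.

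**Figure D1:**
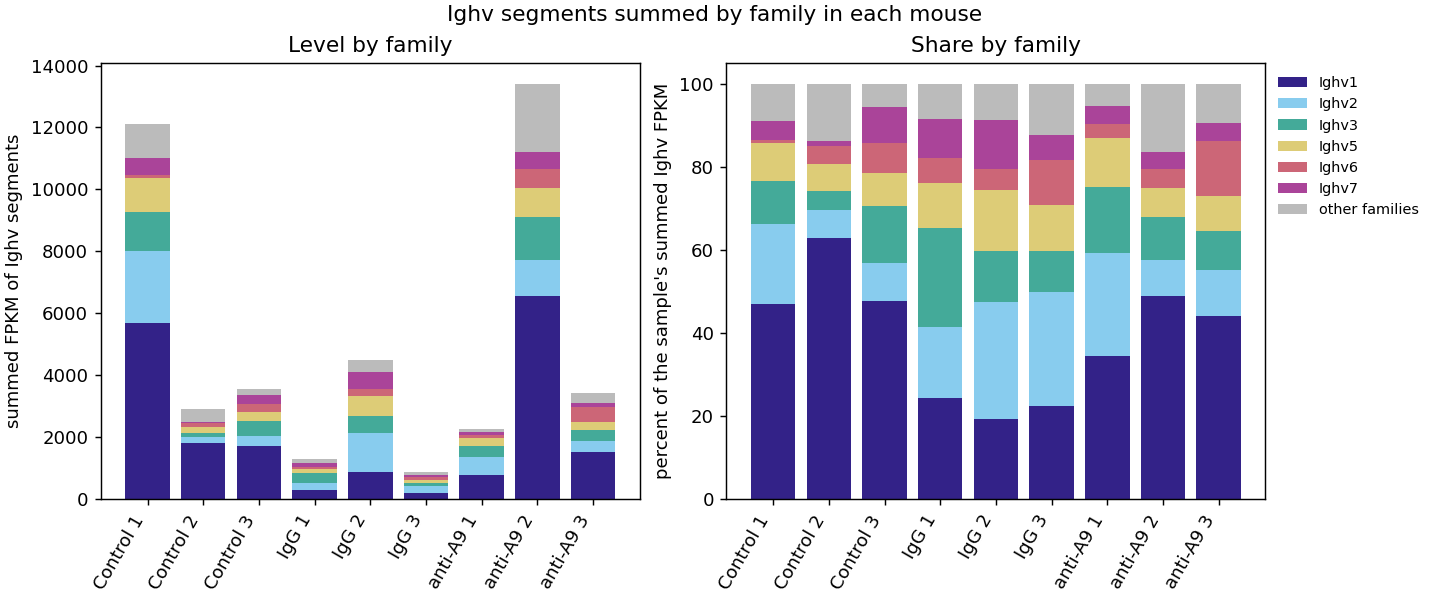
Summed FPKM of the Ighv segments in each mouse (left, bars from 0) and the percent of that sum (right), stacked by family, with 3 mice per group. Control 1 and anti-A9 2 stand highest at 12099 and 13408 FPKM, and family Ighv1 takes 19.3% to 24.3% in the IgG mice against 34.6% to 63.0% in the others.

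Use was spread over many segments in every mouse, and a different segment usually led. In Control mice the first-ranked segment was Ighv2-6-8 in mouse 1 (868 FPKM, 7.17% of the Ighv sum), Ighv1-26 in mouse 2 (501 FPKM, 17.3%) and Ighv1-12 in mouse 3 (884 FPKM, 24.7%). In IgG mice it was Ighv3-6 in mouse 1 (146 FPKM, 11.4%), Ighv2-9 in mouse 2 (835 FPKM, 18.6%) and Ighv2-6 in mouse 3 (107 FPKM, 12.3%). In anti-A9 mice it was Ighv1-12 in mouse 1 (462 FPKM, 20.3%), Ighv3-6 in mouse 2 (766 FPKM, 5.72%) and Ighv6-6 in mouse 3 (357 FPKM, 10.4%). Of these segments, Ighv3-6 and Ighv1-12 led in mice of more than 1 group. The step from the first to the second segment was largest in Control 3, where Ighv1-12 stood 3.00-fold above Ighv7-3, and smallest in anti-A9 2, where Ighv3-6 stood 1.03-fold above Ighv1-26.

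The second- and third-ranked segments were Ighv1-18 and Ighv3-6 in Control 1, Ighv1-7 and Ighv1-9 in Control 2, and Ighv7-3 and Ighv3-6 in Control 3. They were Ighv3-1 and Ighv7-3 in IgG 1, Ighv7-3 and Ighv3-6 in IgG 2, and Ighv3-6 and Ighv6-3 in IgG 3. The anti-A9 mice had Ighv2-6 and Ighv3-1 in mouse 1, Ighv1-26 and Ighv1-34 in mouse 2, and Ighv3-6 and Ighv1-53 in mouse 3. Together the leading 3 held 15.7% of the sum in anti-A9 2 and 42.6% in anti-A9 1, the lowest and highest of the 9 mice. Both extremes of this measure lay within the anti-A9 group.

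Dominance was summarized as the inverse Simpson index, the number of equally used segments that would give the same concentration of shares. This effective number was 31.5, 19.2 and 11.1 in Control mice, 19.8, 14.8 and 21.1 in IgG mice, and 12.3, 38.9 and 31.0 in anti-A9 mice. Control 3 and anti-A9 1, both led by Ighv1-12, had the most concentrated use, anti-A9 2 the most even, and the groups overlapped. The first 5 segments held 50.8% of the sum in Control 3 and 53.6% in anti-A9 1, whereas 14 segments were needed to reach 50% in anti-A9 2 and 13 in anti-A9 3. The effective number differed by -2.04 between IgG and Control (18.6 ± 3.36 against 20.6 ± 10.3, SD, n = 3; exact permutation p = 0.9, adjusted p = 0.9). It differed by 6.83 between anti-A9 (27.4 ± 13.7, SD, n = 3) and Control (exact permutation p = 0.5, adjusted p = 0.75), and by 8.88 between anti-A9 and IgG (exact permutation p = 0.4, adjusted p = 0.75). Without Control 1 the IgG and Control difference turned to 3.42.

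**Figure D2:**
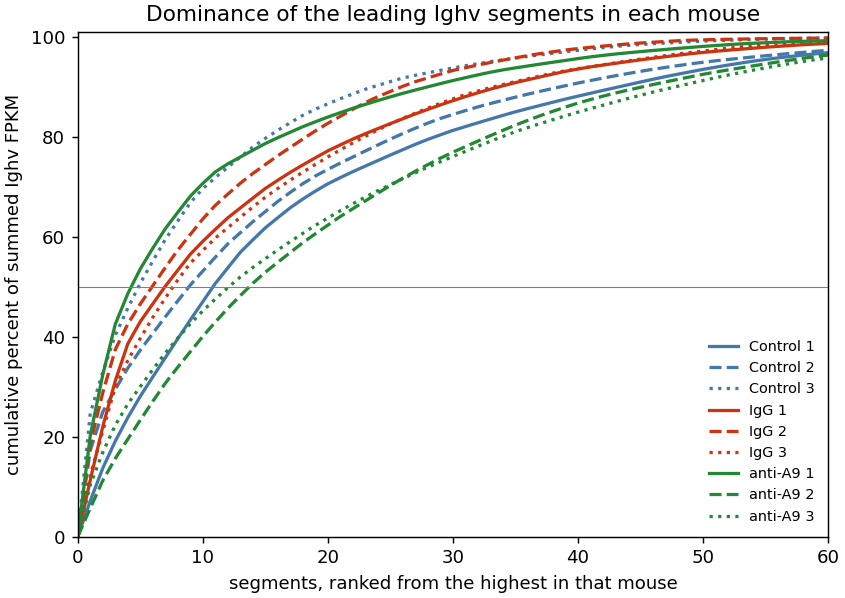
Cumulative percent of the summed Ighv FPKM (y axis) against the number of segments, ranked from the highest in that mouse (x axis, first 60), with 1 line per mouse. The lines of Control 3 and anti-A9 1 cross 50% at 5 segments and those of anti-A9 3 and anti-A9 2 at 13 and 14.

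The 10 segments with the highest mean over the 9 mice were Ighv3-6 (299 FPKM), Ighv7-3 (219), Ighv2-9 (207), Ighv1-26 (205), Ighv1-12 (202), Ighv2-2 (165), Ighv1-18 (128), Ighv2-6 (126), Ighv1-42 (126) and Ighv2-6-8 (122), in mean FPKM. Their levels differed in how evenly they were spread over the mice, which includes the differences in the summed Ighv level. Ighv3-6 was among the first 10 segments in all 9 mice, with 654, 96.4 and 263 FPKM in Control, 146, 387 and 77.5 in IgG, and 75.0, 766 and 223 in anti-A9 mice. Its highest value was 10.2-fold above its lowest, while its share of the Ighv sum was 3.29% to 11.4%. It was followed by Ighv7-3 (first 10 in 8 mice, 6.49 to 464 FPKM), Ighv2-9 (7 mice, 38.7 to 835 FPKM) and Ighv2-2 (6 mice, 36.6 to 515 FPKM).

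Ighv1-26 had an uneven use, with 441, 501 and 1.95 FPKM in Control, 7.20, 10.3 and 3.50 in IgG, and 16.2, 743 and 117 in anti-A9 mice. It was high in 2 Control and 2 anti-A9 mice and at most 16.2 FPKM in the other 5. Ighv1-12 stood at 241, 50.2 and 884 FPKM in Control, 29.7, 63.2 and 8.88 in IgG, and 462, 18.0 and 60.1 in anti-A9 mice. Ighv2-6-8 was at 868 FPKM in Control 1 and between 2.55 and 107 FPKM in the others, and Ighv1-34 at 589 FPKM in anti-A9 2 and between 0.237 and 35.9 FPKM elsewhere. Of the 103 segments, 37 were among the first 10 in some mouse and 15 of these in exactly 1 mouse.

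At the low end, 52 segments were above 0 in all 9 mice and 37 were at 1 FPKM or more in all. The lowest values above 0 among segments with a transcript of 350 to 354 bases were 0.254 to 0.351 FPKM across mice, with nothing between these and 0. A value near 0.3 FPKM is therefore the lowest step above 0 for segments of this length, and the steps of the 9 mice were within 1.38-fold of each other. Segments of other lengths had lower values, down to 0.140 FPKM for Ighv7-4 in anti-A9 1. Fragment counts and library depth are otherwise unknown.

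Family 1, the largest with 48 of the 103 segments, took a smaller share in IgG mice than in either other group. It held 47.0%, 63.0% and 47.8% of the Ighv sum in Control, 24.3%, 19.3% and 22.3% in IgG, and 34.6%, 48.9% and 44.2% in anti-A9 mice. All 3 IgG mice lay below all 6 others. The difference of IgG from Control was -30.6 percentage points (22.0 ± 2.54 against 52.6 ± 9.01, SD, n = 3; exact permutation p = 0.1, the smallest possible). That of anti-A9 (42.6 ± 7.29, SD, n = 3) from IgG was 20.6 points (exact permutation p = 0.1), and that of anti-A9 from Control was -10.0 points (exact permutation p = 0.3). These shares were compared after they had been seen, among 45 comparisons of 15 measures, and the adjusted p was 0.45 for the first and second differences and 0.64 for the third. The difference between anti-A9 and IgG leaned on Ighv1-12 in anti-A9 1. With that segment left out of the sums, family 1 held 17.9% in anti-A9 1, below all 3 IgG mice (18.2% to 22.6%), while the Control mice (30.6% to 62.3%) still lay above all IgG mice.

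Some of the other families took up the share. Family 2 held 17.1% to 28.1% in IgG against 6.76% to 19.3% in Control and 8.72% to 24.7% in anti-A9 mice, and both of these ranges overlapped that of IgG. Family 5 held 10.7% to 14.8% in IgG and 6.47% to 9.17% in Control mice, which did not overlap (exact permutation p = 0.1, adjusted p = 0.45). Family 7 held 6.12% to 12.0% in IgG and 4.10% to 4.35% in anti-A9 mice, again without overlap (exact permutation p = 0.1, adjusted p = 0.45). Family 9 went the other way, with 0.471% to 1.54% in IgG and 1.65% to 3.89% in anti-A9 mice, without overlap (exact permutation p = 0.1, adjusted p = 0.45). Of 27 comparisons over the 9 families with at least 3 segments, 5 had no overlap. Among single genes, 31.0% to 46.9% had no overlap, depending on the comparison.

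Position along the locus gave the same split, because all of family 1 lies on the far side from Ighj. The 46 segments between Ighj and the first family 1 segment held 50.1%, 33.5% and 50.1% of the sum in Control, 71.2%, 79.1% and 69.3% in IgG, and 63.4%, 47.0% and 53.0% in anti-A9 mice. The IgG mice were above all others (exact permutation p = 0.1 against each group, adjusted p = 0.45), and the measure is not independent of the family 1 share. Without Ighv1-12 the anti-A9 1 value became 79.5%, within the IgG range of 70.0% to 80.3%.

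**Figure D3:**
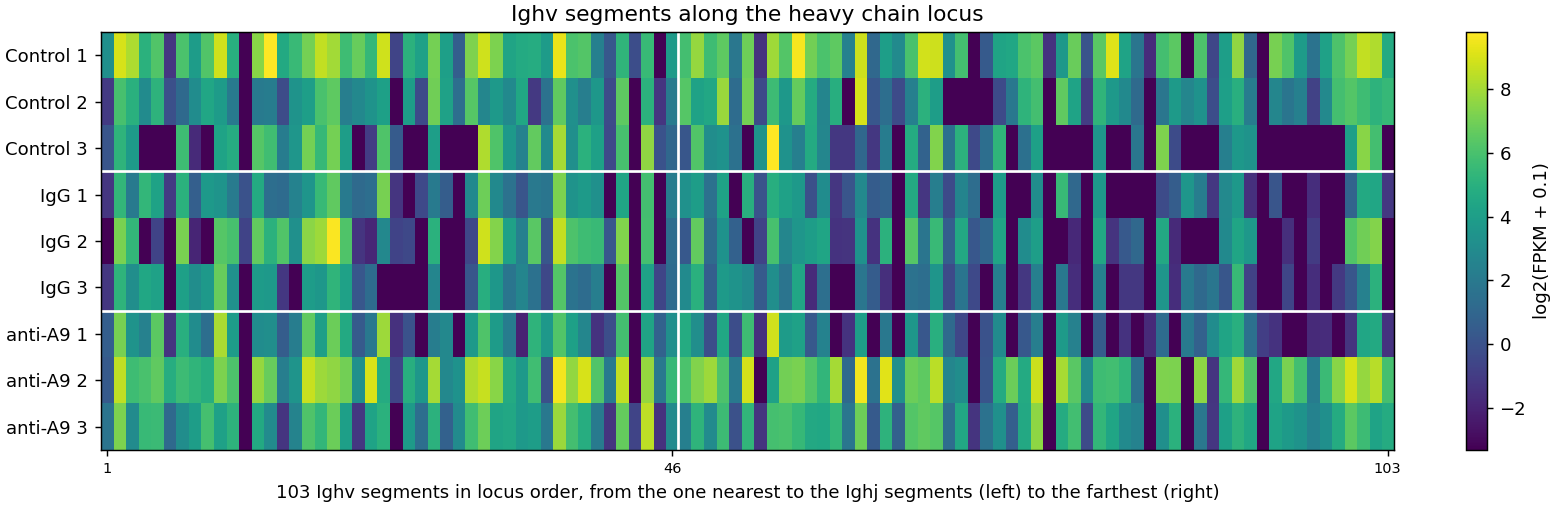
log2(FPKM + 0.1) of the 103 segments (columns, in locus order from the Ighj side) in each mouse (rows), with white lines between groups and after the 46th segment, where family 1 begins. Dark cells are at or near 0, and many lie at the same columns in Control 3 and IgG 2, mostly to the right.

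Segments at 0 were not spread alike over the mice. A 0 may not mean an unused segment, since how well segments of these outbred mice match the reference was not tested. Under 0.1 FPKM were 5, 11 and 33 segments in Control, 21, 25 and 25 in IgG, and 17, 8 and 6 in anti-A9 mice. Control 3 and IgG 2 shared 23 of theirs, which is 23 of 33 and 23 of 25. Among these, 13 segments were at 0 in both mice and at 1 FPKM or more in Control 1, Control 2, anti-A9 2 and anti-A9 3, namely Ighv2-3, Ighv5-12, Ighv9-1, Ighv9-2 and 9 of family 1 from Ighv1-9 to Ighv1-85. In the 7 other mice these 13 held 3.68% to 14.3% of the Ighv sum. Ighv1-9, for instance, was at 120 and 131 FPKM in Control 1 and 2, at 30.9 and 7.60 in IgG 1 and 3, and at 52.6, 484 and 39.4 in anti-A9 mice. Ighv1-54 reached 97.1 FPKM in Control 2 and 267 FPKM in anti-A9 2. The pattern was picked after the values were seen and is a description. Over the 15278 genes tested, 13 (0.0851%) had it, and all 13 were Ighv segments. Because the pattern was defined on Ighv values, this count does not test whether it is particular to them.

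The likeness of whole profiles cut across the groups too. Over the shares of the 103 segments, Spearman's rho between Control 3 and IgG 2 was 0.913, the highest of 36 pairs of mice. IgG 1 and anti-A9 1 followed at 0.812, and anti-A9 2 and anti-A9 3 were at 0.785. The lowest value, 0.253, was between Control 2 and Control 3 of the same group. Pairs within a group had a median of 0.604 (9 pairs) and pairs between groups 0.557 (27 pairs). Of the 9 mice, 6 had their closest profile in another group, where 27 of the 36 pairs join different groups. Segments at 0 in both mice of a pair raise this measure, and the points of 1 mouse share its library, so no p was computed. Even the closest profiles did not have the same leader: Ighv1-12 held 24.7% in Control 3, where IgG 2 was led by Ighv2-9.

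**Figure D4:**
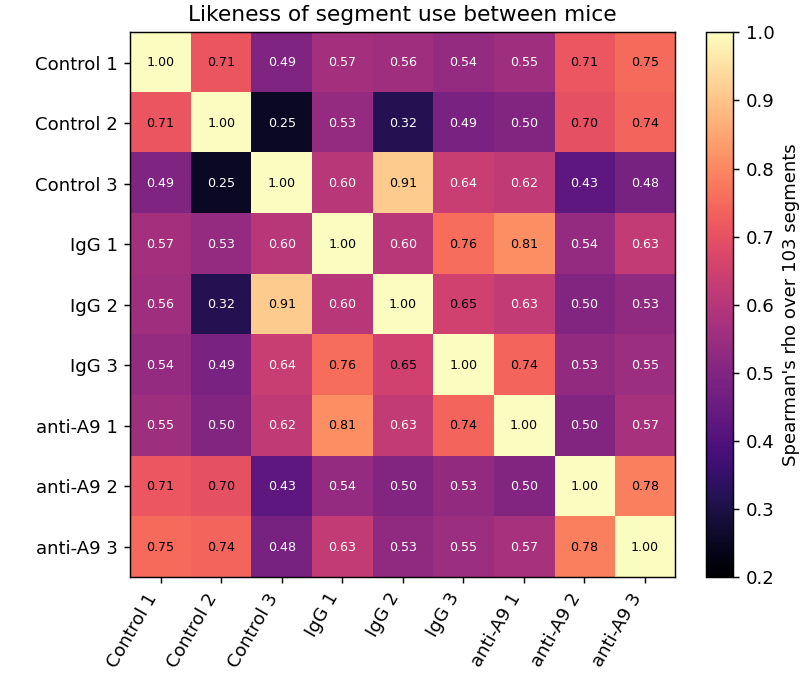
Spearman's rho over the 103 segments' shares for each pair of the 9 mice, with the value printed in each cell. The brightest cell off the diagonal joins Control 3 with IgG 2 (0.91), and the darkest joins Control 2 with Control 3 (0.25).

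Segment by segment, the comparison of IgG with Control sets AOM/DSS tissue under control antibody, labelled adenocarcinoma, against untreated normal mucosa. Treatment, antibody and tissue type cannot be told apart in it. Of 98 segments tested with limma on log2(FPKM + 0.1), 86 had a log2 fold change below 0, with a median of -1.56 against 0.094 over all genes tested. The median was -0.83 without Control 1. In every comparison the segments of a mouse come from 1 library and add up to its summed Ighv level. Counts of directions are therefore not separate observations of a group difference. The summed level itself differed by -1.54 here (log2 scale, exact permutation p = 0.3). A segment was called where the unadjusted p was under 0.05 and its level differed more than 2-fold. By this rule 6 segments were lower and 1 was higher, where 5.19% and 8.43% of all genes were called. No segment passed an adjusted p under 0.05 (limma, Benjamini-Hochberg; 11.2% of all genes did, and 7 segments had an unadjusted p under 0.05). Only 7 segments had groups that did not overlap, against 31.0% of all genes. The median standard error of a segment's log2 fold change was 1.50, against 0.261 over all genes.

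Ighv1-19, with 130, 26.8 and 25.8 FPKM in Control and 0.810, 15.9 and 0.204 FPKM in IgG mice, fell the most among called segments without overlap (log2 fold change -4.77, SE 1.73, limma adjusted p = 0.107). Ighv5-15 was at 48.0, 10.5 and 11.8 FPKM in Control and 5.43, 9.43 and 0 FPKM in IgG mice (log2 fold change -3.39, SE 1.49, limma adjusted p = 0.169). Ighv5-2, the segment nearest to Ighj, was at 9.29, 0.364 and 1.01 FPKM in Control and at 0.326, 0 and 0.331 FPKM in IgG mice (log2 fold change -2.68, SE 1.04, limma adjusted p = 0.128). For Ighv5-2, IgG 2 was at 0, and IgG 1, IgG 3 and Control 2 lay near the lowest step above 0. The lack of overlap thus rests on a small difference between 0.331 FPKM in IgG 3 and 0.364 FPKM in Control 2. The 3 other called falls were Ighv1-12, Ighv1-52 and Ighv3-5, whose groups overlapped. Ighv1-52 has a near copy, Ighv1-61, of 98.7% identity. Of the 10 segments with the highest mean, Ighv1-12 alone was called in this comparison, and the values closest to 0 were those of Ighv2-9 (log2 fold change 0.017, SE 0.95) and Ighv2-6 (-0.14, SE 1.51).

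The number called depended on single mice. It was 7 with all mice, 0 without Control 1, 29 without Control 3, 15 without IgG 2, 3 without IgG 3, 19 without anti-A9 1, 11 without anti-A9 2 and 4 without anti-A9 3. Mice of the third group count here because all 9 samples share 1 estimate of the spread.

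Between anti-A9 and Control, which differ by AOM/DSS, the antibody and the labelled tissue together, few segments were called. The median log2 fold change was 0.36 (0.039 over all genes), with 58 segments above and 40 below 0. This median turned to -0.49 without anti-A9 2 and to -0.40 without Control 3, and was 0.025 without Control 2, 1.32 without anti-A9 1, 1.46 without Control 1 and 0.23 without anti-A9 3. Called were 0 segments higher and 1 lower, beside 2.28% and 0.864% of all genes, and 0 passed an adjusted p under 0.05 (limma; 0.0131% of all genes, and 1 segment had an unadjusted p under 0.05). Groups did not overlap for 1 segment, against 31.0% of genes. The called segment was Ighv1-11, named after its values were seen. It was at 0.268, 0.671 and 10.6 FPKM in Control and at 0.254, 0 and 0.286 FPKM in anti-A9 mice, so that Control 3 alone was high (log2 fold change -2.60, SE 1.12, limma adjusted p = 0.309). The count was 0 without IgG 1 or IgG 2, and the direction of the calls changed with the mouse left out. Without anti-A9 1, 7 segments were called higher and 0 lower, and without Control 1, 3 higher and 1 lower. Called were 3 lower without Control 3, 2 lower without anti-A9 2, 1 in each direction without Control 2, and 1 higher without anti-A9 3.

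The comparison of anti-A9 with IgG sets the antibody to S100A9 against control IgG under AOM/DSS. Both tissues are labelled adenocarcinoma, but the paper's text calls the anti-A9 tissue colon mucosa, so antibody and tissue may both differ. In this comparison 88 of the 98 segments had a log2 fold change above 0, with a median of 2.16 (-0.060 over all genes), which was 1.39 without anti-A9 2. These are not separate observations either, and the summed Ighv level differed by 1.46 (log2 scale, exact permutation p = 0.3). Called were 13 segments higher and 1 lower, where 7.64% and 8.38% of all genes were called. An adjusted p under 0.05 was reached by 2 segments (limma; 21.1% of all genes), and 16 had groups without overlap (46.9% of all genes). This comparison and that of IgG with Control share the IgG mice, so their directions are not independent.

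Ighv1-69 was at 7.10, 7.29 and 1.02 FPKM in IgG and at 19.9, 42.5 and 17.5 FPKM in anti-A9 mice, with no overlap. It rose by a log2 fold change of 2.66 (SE 0.77, limma adjusted p = 0.042), and its Control values were 16.2, 16.8 and 4.87 FPKM. Its adjusted p ranged from 0.015 to 0.13 over 19 alternative settings and was under 0.05 in 8 of them. A near copy, Ighv1-59, shares 97.4% of its V exon.

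Ighv8-4 was the exception that fell, with 2.49, 1.08 and 0.638 FPKM in IgG and 0, 0 and 0.298 FPKM in anti-A9 mice. Its log2 fold change was -3.05 (SE 0.89, limma adjusted p = 0.043), and the adjusted p ranged from 0.017 to 0.16 over 18 settings, under 0.05 in 8. Control mice had 0, 0 and 0.650 FPKM, so Ighv8-4 was also the 1 segment called higher in IgG than in Control (log2 fold change 2.74, SE 0.89, limma adjusted p = 0.081). Apart from IgG 1 and IgG 2, its values above 0 lie between 0.298 and 0.650 FPKM, near the lowest step.

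Among the called rises without overlap, Ighv1-78 had the largest log2 fold change. It was listed at 0 in all 3 IgG mice and at 0.217, 48.2 and 9.16 FPKM in anti-A9 mice, so no fold is given (limma adjusted p = 0.083). Ighv1-55 was at 2.02, 0.190 and 0.224 FPKM in IgG and at 5.24, 85.1 and 56.2 FPKM in anti-A9 mice (log2 fold change 5.66, SE 2.29, limma adjusted p = 0.104). Ighv14-2 was at 0, 0.608 and 0 FPKM in IgG and at 0.890, 29.9 and 14.0 FPKM in anti-A9 mice (log2 fold change 5.29, SE 2.15, limma adjusted p = 0.105). In all 3, anti-A9 1 was the lowest of its group. Control 3 was at 0 for each of them, and Control 1 and 2 were between 7.09 and 109 FPKM.

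The other called rises were Ighv1-15, Ighv1-72, Ighv1-85, Ighv2-4, Ighv4-1, Ighv5-2, Ighv8-2, Ighv9-2 and Ighv10-1, with limma adjusted p between 0.072 and 0.12. Of the 13, 6 were of family 1. None of the 10 segments with the highest mean was called. The count of 14 moved to 41 without anti-A9 1 and 23 without Control 3, and to 9 without IgG 1, 6 without anti-A9 3 and 5 without either IgG 3 or anti-A9 2.

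**Figure D5:**
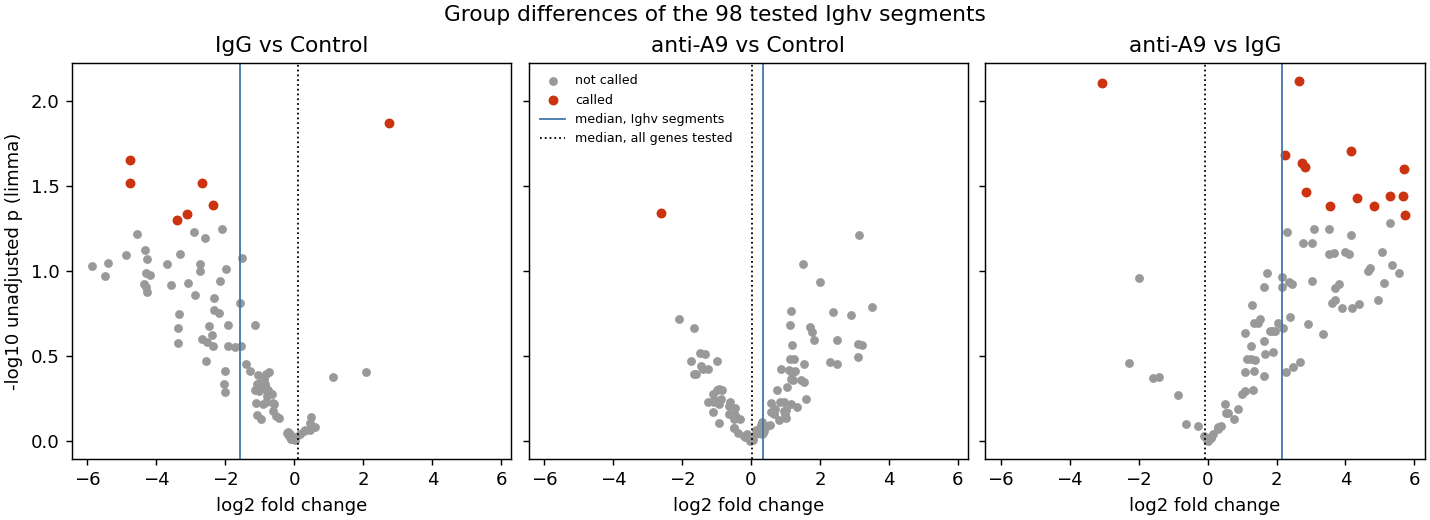
Log2 fold change (x axis) and -log10 unadjusted p from limma (y axis) of the 98 tested segments in each comparison, with called segments in red, the segments' median as a blue line and the median of all genes as a dotted line. The segments sit to the left in IgG vs Control (median -1.56) and to the right in anti-A9 vs IgG (median 2.16), with most points uncalled.

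The constant genes, which are transcribed with the joined Ighv exon, had no called member among 8 in any of the 3 comparisons. Igha, the IgA constant gene, was at 3816, 2451 and 3337 FPKM in Control, 991, 2844 and 1044 in IgG, and 1001, 4274 and 629 in anti-A9 mice. As a share of the summed constant genes it was 83.7% to 97.1% in Control, 86.0% to 92.6% in IgG and 59.4% to 87.6% in anti-A9 mice. Ighm and Ighd, which naive B cells express together, held 16.2% and 26.9% in anti-A9 1 and anti-A9 3 and 0.998% to 7.41% in the 7 other mice. The 4 Ighg genes held 1.26% to 8.31% in Control, 6.37% to 11.1% in IgG and 11.2% to 15.6% in anti-A9 mice. The anti-A9 range lay above both others (exact permutation p = 0.1 each, adjusted p = 0.45), but only just above IgG 3.

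The ratio of the summed Ighv level to the summed constant genes was 2.88, 1.15 and 0.897 in Control, 1.20, 1.39 and 0.721 in IgG, and 1.55, 2.75 and 3.25 in anti-A9 mice. The anti-A9 mice were above the IgG mice (2.52 ± 0.871 against 1.10 ± 0.346, SD, n = 3; exact permutation p = 0.1, adjusted p = 0.45) and overlapped the Control mice. These measures were also compared after they had been seen.

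Markers of the cells that make antibody and of the other cells of the tissue are given beside these results. The 14 plasma cell markers measured summed to 1431 to 2315 FPKM in Control, 593 to 1620 in IgG and 612 to 2934 in anti-A9 mice, and no marker was at 0. Jchain alone made up most of this sum in every mouse, for example 2578 of 2934 FPKM in anti-A9 2. Sdc1 added 159 and 147 FPKM in IgG 1 and IgG 3. Of these 14, IgG vs Control had 4 called lower (5.19% of all genes), among them Tnfrsf17 (the BCMA receptor of plasma cells, log2 fold change -1.83, limma adjusted p = 0.081), and 1 called higher (8.43% of all genes), Sdc1 (1.18, limma adjusted p = 0.012), which colon epithelium also expresses. The anti-A9 and IgG comparison had 3 called higher and 2 lower (7.64% and 8.38% of all genes). Irf4, a plasma cell transcription factor, rose by 2.02 (limma adjusted p = 0.036), while Sdc1 (-1.28, limma adjusted p = 0.0094) and Fkbp11 (-1.03, limma adjusted p = 0.019) fell. In anti-A9 vs Control 1 was called lower, Tnfrsf17, beside 0.864% of all genes. The joining chain gene Jchain, which links IgA dimers, was at 1975, 1156 and 1114 FPKM in Control, 431, 1236 and 298 in IgG and 634, 2578 and 364 in anti-A9 mice, and was called in no comparison.

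The 12 B cell markers summed to 33.6 to 307 FPKM in Control, 11.7 to 145 in IgG and 64.9 to 275 in anti-A9 mice, with none at 0. Of these, 7 were called higher in anti-A9 than in IgG (7.64% of all genes) and none passed an adjusted p under 0.05, with 7 at an unadjusted p under 0.05. An example is Ms4a1 (CD20; log2 fold change 3.45, limma adjusted p = 0.086). None was called in the other comparisons. IgG 1 and IgG 3 were lowest in B cell markers and in the Ighv sum. In contrast, anti-A9 2, the highest in the Ighv sum, was the lowest of its group in B cell markers. In plasma cell markers anti-A9 2 was the highest mouse (2934 FPKM), followed by Control 1 (2315) and IgG 2 (1620), the same order as in the Ighv sum. IgG 3 was lowest in both (593 FPKM in plasma cell markers). However, anti-A9 3 was low in plasma cell markers (612 FPKM) and not in the Ighv sum (3437 FPKM). The part of cell numbers in the Ighv differences was not tested.

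Some epithelial, muscle and T cell markers also differed between the groups. The 10 colon epithelium markers summed to 3009 to 3745 FPKM in Control, 2465 to 3362 in IgG and 2584 to 3239 in anti-A9 mice, and none was at 0, with Epcam at 584 to 890 FPKM. In IgG vs Control, Slc26a3 (a chloride exchanger of surface colonocytes, log2 fold change -4.03, limma adjusted p = 0.012) and Car1 (-2.65, limma adjusted p = 0.033) fell and Krt18 (1.19, limma adjusted p = 0.026) rose. Over all genes, 5.19% were called lower and 8.43% higher in IgG vs Control. In anti-A9 vs IgG, 3 of the 10 were called higher and 1 lower (7.64% and 8.38% of all genes). The 5 smooth muscle markers, of the muscle layers, summed to 794 to 1277 FPKM in Control, 210 to 1648 in IgG and 937 to 1918 in anti-A9 mice. Among them Myh11 was called lower in IgG than in Control (-1.46, limma adjusted p = 0.113), beside 5.19% of all genes. Myh11 (2.01, limma adjusted p = 0.033), Synpo2 (2.21, limma adjusted p = 0.021) and Cnn1 (1.51, limma adjusted p = 0.10) were called higher in anti-A9 than in IgG, beside 7.64% of all genes. Of the 7 T cell markers, Cd4 alone was called. It was higher in anti-A9 than in IgG (2.26, limma adjusted p = 0.016, beside 7.64% of all genes) and than in Control (1.59, limma adjusted p = 0.301, beside 2.28% of all genes). The part of these differences in tissue makeup in the Ighv results was not tested.

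Of 6 genes for IgA transport and plasma cell survival, 3 were called lower in IgG than in Control, beside 5.19% of all genes. They were Pigr (the receptor that carries IgA across epithelium, log2 fold change -1.27, limma adjusted p = 0.076), Ccl28 (a chemokine for IgA plasma cells, -2.11, limma adjusted p = 0.089) and Tnfsf13 (APRIL, a plasma cell survival factor, -1.16, limma adjusted p = 0.064). Ccl28 was called higher in anti-A9 than in IgG (2.16, limma adjusted p = 0.060), beside 7.64% of all genes. In that comparison Tnfsf13b rose by 0.90, less than 2-fold, and was the 1 gene of the list with an adjusted p under 0.05 (limma adjusted p = 0.036). Of 5 light chain constant genes none was called in any comparison.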

How the data were processed

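The authors deposited 1 table per mouse with values for 21544 rows, read here as FPKM because they are decimal and Cufflinks is named; no header gives the unit. The submitters' processing notes name TopHat, Cufflinks, HTSeq, DESeq and GRCm38, without roles; versions and annotation are not given in the sources used here. How well segments of outbred mice match the reference was not tested. Rows of a repeated symbol were summed (no Ighv symbol was repeated). limma 3.58.1 (R 4.3.3, eBayes with trend, 8.87 degrees of freedom, all 9 samples) was fitted on log2(FPKM + 0.1). The fit held 15278 genes with at least 0.1 FPKM in 3 samples, which 5 of the 103 segments did not reach. Fold changes of segments at or near 0 depend on the pseudocount of 0.1, which lies below the lowest step above 0. The segments' median log2 fold change in IgG vs Control was -1.03 with a pseudocount of 1 and -1.89 with 0.01. The fit was also run on simulated normal log2 values without zeros, which does not test it for segments at or near 0. Single values were compared with exact permutation tests (scipy 1.17.1). The paper's count test could not be run. Positions and sequences are from GENCODE M21 (GRCm38). No files held the same values. Labels call the mice biological replicates.

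Named segments are the 10 with the highest mean, the first 3 of each mouse, per comparison the 3 largest called rises and falls without overlap, and all with an adjusted p under 0.05. Members and lists were chosen with earlier results of these data known. Alternatives covered pseudocount, filter, scaling, samples fitted, replicate block, trend, index and left-out mice.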

Additional observations from a re-analysis of the deposited data

How the results depend on the processing

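Fold changes of single segments rest on 3 mice per group with a median standard error of 1.50 against 0.261 over all genes, on levels near the lowest step and on near copies. The counts of called segments moved with many settings. The number of segments called in IgG vs Control, anti-A9 vs Control and anti-A9 vs IgG (7, 1 and 14) was 0, 0 and 2 at an adjusted p under 0.05, and 12, 1 and 23 with only the 2 groups compared in the fit. For anti-A9 vs Control it was 0 with a pseudocount of 1, with no filter, with at least 1 FPKM in 3 samples and without the intensity trend. Leaving out each mouse in turn gave 0 to 29, 0 to 7 and 5 to 41. Without mouse 2 of both AOM/DSS groups, chosen after seeing the data, the counts were 21, 5 and 9.

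With the replicate number as a block the counts were 11, 3 and 16. Deviations of same-numbered mice correlated at -0.187 to 0.249, not above 0.1 in every pair, so the numbers were not taken as pairing the mice.

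The direction of the summed level held over all settings for IgG vs Control (log2 difference -2.24 to -0.907) and anti-A9 vs IgG (0.705 to 2.15). For anti-A9 vs Control (-0.086) it reversed to 0.114 with the same total in every sample, and ranged from -0.839 to 0.551 with mice left out. The effective number differed by -6.78 to 3.42 for IgG vs Control with mice left out, 1.09 to 14.4 for anti-A9 vs Control and 3.13 to 16.4 for anti-A9 vs IgG. The family 1 difference kept its sign in all settings tried, from -33.4 to -19.9 points for IgG vs Control, -13.2 to -4.82 for anti-A9 vs Control and 14.2 to 24.5 for anti-A9 vs IgG. The cause of these shifts was not tested.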

Other observations

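The kappa light chain variable (Igkv) segments, which pair with the heavy chain, were read in the same way as a second view of segment use. Over 100 Igkv segments Spearman's rho between mice was 0.296 to 0.896. The closest pair was IgG 2 and anti-A9 2 (0.896), which for the Ighv segments were at 0.500, so the mice that were alike differed between the heavy and the kappa segments. Igkv6-15 led in Control 2 with 19.3% of the summed Igkv level and Igkv1-88 in anti-A9 1 with 19.2%, whereas Igkv1-117 led in IgG 1, IgG 3 and anti-A9 3 with 8.01% to 10.6%, and Igkv5-45 in IgG 2 (11.9%) and anti-A9 2 (12.6%). The effective number of Igkv segments was lowest in anti-A9 1 (12.7), a mouse also concentrated in Ighv use (12.3), and highest in Control 3 (35.8), which was the most concentrated of all in Ighv use (11.1).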
